A study of Homo sapiens with 6 samples.

Results

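Long intergenic noncoding RNAs whose gene symbol is LINC followed by digits were described in an esophageal carcinoma cell line and in a clone of it that lacks KEAP1. The genes were selected on measured values: a mean of at least 10 normalized counts over all 6 libraries kept 246 of the 1880 rows with such a symbol, among 16701 genes of any kind with that mean. KYSE450 is a human esophageal squamous cell carcinoma line with wild-type NRF2, and 3 libraries were made from its total RNA. KEAP1null-KYSE450, also with 3 libraries, is 1 clone derived from it by CRISPR-Cas9 cutting in KEAP1. Both were grown untreated in RPMI medium with fetal bovine serum. The loss of KEAP1 and any other difference carried by this clone cannot be told apart. No source states that the libraries of a line came from separate cultures, so p-values measure the spread between these libraries, which may be technical. A normalized count is the number of reads on a gene divided by 1 size factor per library. Totals over all genes lay between 54829313 and 57380170 normalized counts per library. Columns name the line but no replicate, so library numbers only name a column.

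Long intergenic noncoding RNAs are transcribed from loci between protein-coding genes, are usually spliced and capped, and have no long conserved reading frame. The LINC name is given to such loci when no function or host gene supplies another, so the group shares a naming rule and not a known role, and some of its loci overlap other genes in the annotation. Some act on transcription near their own locus, some work as scaffolds or microRNA sponges in the cytoplasm, and a few encode micropeptides. KEAP1 is the adaptor that marks the transcription factor NRF2 for degradation. Free NRF2 pairs with small MAF proteins on antioxidant response elements and raises genes of glutathione synthesis, quinone reduction and carbonyl reduction.

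The labels were first checked with KEAP1, NFE2L2 and NQO1. KEAP1 mRNA measured 5760.4, 5226 and 5146 normalized counts across the KYSE450 libraries and 5737, 4906 and 5317 across those of KEAP1null-KYSE450 (log2 fold change -0.017, standard error 0.096, limma adjusted p = 0.90), with overlapping lines, and a gene-level count cannot show an edit inside the transcript. NFE2L2, the gene of NRF2, measured 11199, 11215 and 10616 normalized counts across the KYSE450 libraries and 8072, 7790.4 and 7980 across those of KEAP1null-KYSE450 (log2 fold change -0.47, standard error 0.085, limma adjusted p = 6.3e-04). The quinone reductase gene NQO1, a standard NRF2 target, measured 15681, 17099.9 and 17093 normalized counts across the KYSE450 libraries and 104116, 108806 and 110351 across those of KEAP1null-KYSE450 (log2 fold change 2.70, standard error 0.097, limma adjusted p = 3.9e-10). Every NQO1 value of the clone was above every value of KYSE450. All 9 squamous epithelial markers were above the mean of 10, among them TP63 with 24149.7, 22271 and 18888 normalized counts in KYSE450 and 16389, 13653 and 13086 in KEAP1null-KYSE450 and KRT5 with 250359, 199564 and 174377 normalized counts in KYSE450 and 648677, 536519 and 519548 in KEAP1null-KYSE450. KRT5 was called higher in KEAP1null-KYSE450, and KRT6A and KRT14 were called lower (11.1% and 22.2%, beside 12.2% and 5.98% of all genes). Mean normalized counts in KYSE450 and KEAP1null-KYSE450 were 71578 and 2738 for KRT6A and 2401 and 34.5 for KRT14. The median log2 fold change of the 9 was -0.60. TP63, SOX2, SFN, CDH1 and EPCAM had log2 fold changes of -0.60, -0.997, -0.41, -0.82 and -0.023, and DSG3 one of 0.41, none of them called. The leukocyte markers PTPRC, CD3E and CD14 summed to at most 15.2 normalized counts in any library. Of the fibroblast markers, COL1A1 had 839, 657 and 607 normalized counts in KYSE450 and 333, 401 and 431 in KEAP1null-KYSE450, while COL1A2 and DCN were at 0 in every KYSE450 library and each above 0 in 1 KEAP1null-KYSE450 library, at 0.923 and 2.04. PDGFRB had 0, 1.01 and 0 normalized counts in KYSE450 and 12.9, 5.10 and 0 in KEAP1null-KYSE450, and the summed list of 5 was 847 or less in every library. Of the endothelial markers, PECAM1 was at 0 in every library and VWF and CDH5 passed the mean of 10, with VWF at 47.1, 53.6 and 35.4 normalized counts in KYSE450 and 39.7, 56.1 and 67.6 in KEAP1null-KYSE450 and CDH5 lower in KEAP1null-KYSE450 (limma adjusted p = 0.0048). CDH5 reached the mean of 10 in KYSE450 alone, so it had to be lower to be tested. The part of these markers in the LINC values was not tested. In bulk RNA, fewer cells of a kind and less RNA per cell cannot be told apart.

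Most LINC loci were silent or nearly so. Of the 1880 rows, 1161 were at 0 in every library and 719 were above 0 in at least 1. Among all 58884 rows of any kind, 28799 were above 0 in at least 1 library, so silence was common outside the LINC names too. Just inside the limit stood LINC01237, with 1.07, 10.1 and 4.66 normalized counts in KYSE450 and 16.6, 19.4 and 9.08 in KEAP1null-KYSE450. Just outside it stood LINC00702, with 12.8, 28.3 and 16.8 normalized counts in KYSE450 and 0, 0 and 0 in KEAP1null-KYSE450. Levels of the 246 genes kept ran from 10.1 to 3484 normalized counts as a mean over libraries, with a median of 61.6. Because the mean is taken over both lines, a gene high in only one line can pass: 194 reached 10 in both lines, 45 only in KEAP1null-KYSE450 and 7 only in KYSE450. The same shares over all genes tested were 93.1%, 5.00% and 1.86%, against 78.9%, 18.3% and 2.85% of the LINC genes. Genes that passed through one line alone had to differ, so the counts that follow describe the genes that passed and support nothing beyond them.

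LINC genes were more often higher than lower in KEAP1null-KYSE450. With limma on log2 of the normalized count plus 1, 85 of 246 LINC genes passed as higher and 13 as lower, where a call needs a Benjamini-Hochberg adjusted p below 0.05 and a log2 fold change of 1 or more in size. That is 34.6% and 5.28%, beside 12.2% and 5.98% of all 16701 genes tested (18.2% in either direction). The median log2 fold change was 0.70 over LINC genes and 0.0041 over all genes, and 195 LINC genes had a positive value. Among the 194 LINC genes that reached the mean of 10 in both lines, 54 were called higher and 9 lower, with a median of 0.56, against 9.65% and 5.30% of all such genes. The split depended on scaling. After quantile normalization 51 LINC genes were called higher and 17 lower, beside 8.31% and 7.72% of all genes (16.0% in either direction). The share of higher calls among LINC calls was then 75.0% in place of 86.7%, and their median was 0.39. All 51 higher calls after quantile normalization were also called without it. Fold changes on the log2(count + 1) scale understate the change of the lowest genes.

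**Figure D1:**
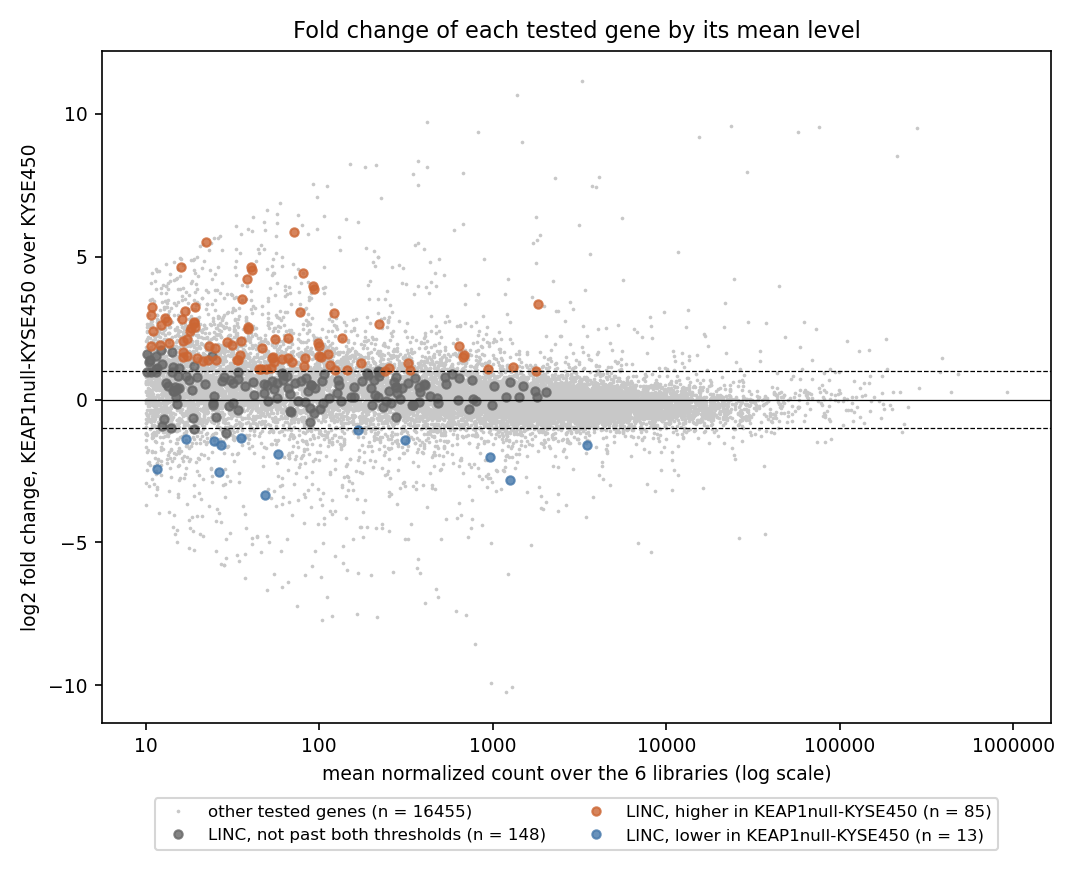
Log2 fold change of KEAP1null-KYSE450 over KYSE450 against the mean normalized count over the 6 libraries (log axis), 1 point per tested gene, with dashed lines at log2 fold changes of -1 and 1. LINC genes called higher (n = 85) lie mostly at means under 100, where the median mean of all 246 LINC genes, 61.6, also lies. The 13 called lower reach from the lowest levels to LINC00665 at the highest LINC level.

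Other long noncoding RNAs had a like shift. The 2109 other long noncoding genes of the annotation had a median log2 fold change of 0.66, with 28.4% called higher and 3.65% lower. The 13131 protein-coding genes had a median of -0.08, with 9.20% higher and 6.66% lower. Pseudogenes and other types (n = 1145) lay between, at 0.17, but at -0.20 after quantile normalization. By rising level, in the bins given next, their medians were 0.17, 0.23, 0.14 and 0.33, with the largest at the highest level. LINC genes with a mean from 10 to 30 had a median of 1.16 (n = 80), those from 30 to 100 had 0.78 (n = 74) and those from 100 to 1000 had 0.51 (n = 79). Only 13 LINC genes reached 1000, with a median of 0.31. Protein-coding genes in the same order had medians of 0.55, 0.47, 0.029 and -0.15, so weakly expressed coding genes were also shifted upward, though not after quantile normalization, where the medians were -0.074, 0.0017, -0.072 and -0.027. Other long noncoding genes had 0.71, 0.70, 0.61 and 0.34, and after quantile normalization 0.084, 0.26, 0.42 and 0.41. LINC genes kept positive medians in every bin after quantile normalization, at 0.48, 0.37, 0.28 and 0.41, without a steady order by level. No test of a difference between these classes was made.

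**Figure D2:**
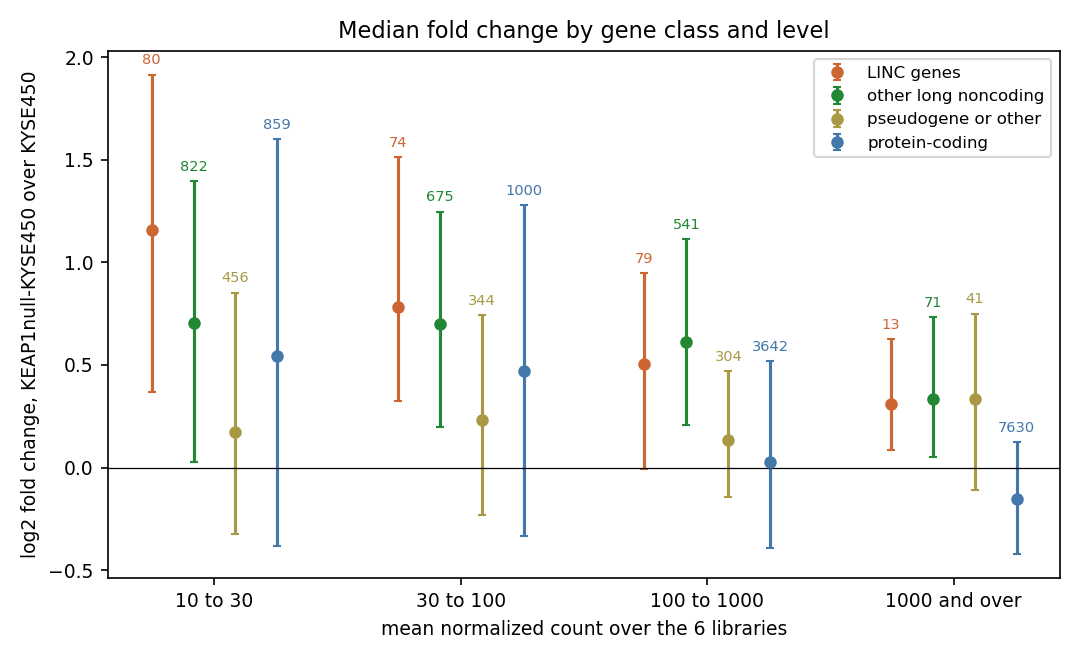
Median log2 fold change of KEAP1null-KYSE450 over KYSE450 (points) with the lower and upper quartile over genes (bars), by gene class and by mean normalized count over the 6 libraries; the small numbers count the genes of each bin, and genes absent from the annotation are not drawn. LINC genes and other long noncoding genes have medians above 0 in every bin, also after quantile normalization, while protein-coding medians pass from 0.55 at the lowest levels to -0.15 at the highest, a course absent after quantile normalization.

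Several library-wide values were higher in KEAP1null-KYSE450, and so were the single genes MALAT1 and NEAT1. LINC genes summed to 44864, 48652 and 48161 normalized counts in the KYSE450 libraries and to 55245, 62062 and 60947 in the KEAP1null-KYSE450 libraries. LINC rows under the mean of 10 summed to 620.3, 700.5 and 665 and to 1055, 1367 and 1211. More genes of any kind were above 0 in the clone, 23106, 23383 and 23143 per library against 21811, 22044 and 22243. The abundant nuclear RNA MALAT1 measured 7080.2, 7158 and 8312 normalized counts across the KYSE450 libraries and 15801, 24883 and 26963 across those of KEAP1null-KYSE450 (log2 fold change 1.55, standard error 0.16, limma adjusted p = 9.7e-06). NEAT1, the scaffold of nuclear paraspeckles, measured 6949, 7768 and 7507 normalized counts across the KYSE450 libraries and 15054, 23348 and 20609.8 across those of KEAP1null-KYSE450 (log2 fold change 1.39, standard error 0.14, limma adjusted p = 5.5e-06). The part of nuclear RNA content, detection or depth in the LINC shift was not tested.

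**Figure D3:**
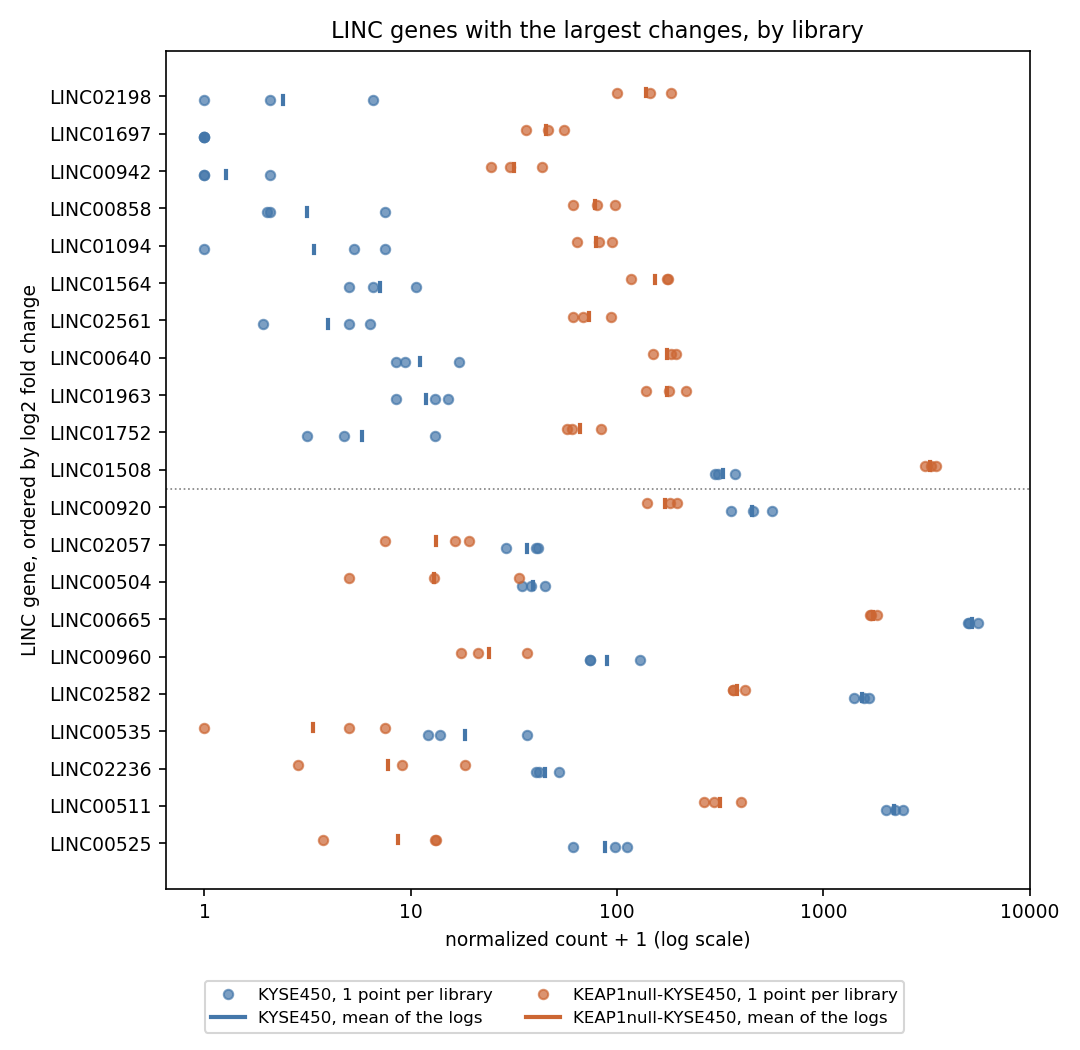
Normalized count plus 1 on a log axis for the 10 LINC genes with the largest log2 fold change in each direction and for LINC01508, 1 point per library and a bar at the mean of the logged values of each line (n = 3 each). In each of these 21 genes the points of the lines do not overlap, and the dotted line parts genes higher in KEAP1null-KYSE450 (above) from those lower.

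Among LINC genes called higher, LINC01508 had the highest level per kilobase of annotated exon, a mean of 903 normalized counts per kilobase. LINC01508 (chr9:90300885-90433566, minus strand, hg38) measured 297, 308 and 372 normalized counts across the KYSE450 libraries and 3093, 3503 and 3304 across those of KEAP1null-KYSE450. Each KEAP1null-KYSE450 library was far above each KYSE450 library, with means of 326 ± 40.3 and 3299.9 ± 205 (SD, n = 3 each), and the gene has no exon overlap with another annotated gene (log2 fold change 3.34, standard error 0.12, limma adjusted p = 3.9e-10). Its nearest tested protein-coding gene was DIRAS2, 176 kb away, a RAS-family GTPase gene with 0, 2.02 and 7.46 normalized counts in KYSE450 and 846, 848 and 804 in KEAP1null-KYSE450 (log2 fold change 8.14, standard error 0.57, limma adjusted p = 2.2e-07). LINC01806 and LINC00205, picked after their values were seen, were the other genes called higher with a mean of at least 1000. LINC01806, with 575 exon bases overlapped on the opposite strand, measured 679, 921 and 867 normalized counts across the KYSE450 libraries and 1563, 1928 and 1936 across those of KEAP1null-KYSE450, and LINC00205 measured 1443, 1063 and 1039.6 normalized counts in KYSE450 and 2547, 2239 and 2292 in KEAP1null-KYSE450, with log2 fold changes of 1.14 and 1.01 (limma adjusted p = 2.6e-05 and 4.9e-05). Neither gene had overlapping lines.

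The largest fold changes belonged to genes near silence in KYSE450. LINC02198 on chromosome 5 measured 1.07, 0 and 5.59 normalized counts across the KYSE450 libraries and 98.7, 143 and 182 across those of KEAP1null-KYSE450 (log2 fold change 5.85, standard error 0.63, limma adjusted p = 1.0e-05). It shares 61 exon bases with a small RNA pseudogene, and its nearest tested coding gene, the zinc transporter gene SLC30A5, had a log2 fold change of -0.055. LINC01697 on chromosome 21 was at 0 in each KYSE450 library and had 45.2, 54.0 and 35.3 normalized counts in KEAP1null-KYSE450. Against a floor of 3 reads per library this is at least 14.9-fold higher. N6AMT1, the neighbour of LINC01697, was not called, at a log2 fold change of 0.55 (limma adjusted p = 0.0028). LINC00942 had 1 read in KYSE450 library 1 and none in the other KYSE450 libraries, against 42.4, 23.4 and 29.3 normalized counts in KEAP1null-KYSE450. Over the 4 libraries whose reads could be recovered, the ratio for LINC00942 was 67.1, with an exact 95% interval from 11.6 to 2688, for counting error only. ERC1, a scaffold protein gene 4592 bases from LINC00942, was called higher too, with 1572, 1162 and 899.7 normalized counts in KYSE450 and 3043, 2612 and 2359.7 in KEAP1null-KYSE450 (limma adjusted p = 1.3e-04). LINC00858 measured 1.07, 1.01 and 6.53 normalized counts in KYSE450 and 60.0, 96.8 and 78.7 in KEAP1null-KYSE450. Its neighbour CCSER2 was not called, at a log2 fold change of -0.35. LINC01094 measured 4.28, 0 and 6.53 normalized counts in KYSE450 and 62.7, 80.5 and 93.8 in KEAP1null-KYSE450, while its neighbour ANXA3, an annexin gene, was called lower, from 3661, 3953 and 5383 to 412, 459 and 437 normalized counts. The remaining genes of the 10 largest that are not described elsewhere were LINC01963, with 7.49, 14.2 and 12.1 normalized counts in KYSE450 and 216, 177 and 137 in KEAP1null-KYSE450, and LINC01752, with 2.14, 12.1 and 3.73 normalized counts in KYSE450 and 56.3, 59.1 and 82.7 in KEAP1null-KYSE450. Their neighbours XRCC5, a DNA repair gene, and JAG1, a NOTCH ligand gene, had log2 fold changes of -0.50 and -0.27. Values of the lines did not overlap in any of the LINC genes named here, and LINC01752 has 80 exon bases overlapped on the opposite strand. Leaving out 1 KYSE450 library moved such fold changes. Without library 2 and without library 3, the log2 fold change of LINC02198 was 5.22 and 6.58. That of LINC01094 was 3.65 and 5.10, in place of 4.53.

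LINC01564 and LINC02561 are described with the genes around them, a choice of loci made after the values were seen, and no pathway was tested. LINC01564 (chr6:53616471-53707024, plus strand) starts 71.4 kb upstream of the canonical transcript of GCLC and runs the other way, and the longest GCLC model reaches past it by 499 bases with no shared exon. GCLC encodes the catalytic subunit of glutamate-cysteine ligase, which makes the first bond of glutathione. LINC01564 measured 9.63, 4.04 and 5.59 normalized counts across the KYSE450 libraries and 116, 173 and 175 across those of KEAP1null-KYSE450 (log2 fold change 4.44, standard error 0.38, limma adjusted p = 1.6e-06). GCLC, singled out after its values were seen, measured 5937, 5291 and 4836 normalized counts in KYSE450 and 91736, 79454 and 81402 in KEAP1null-KYSE450 (log2 fold change 3.98, standard error 0.11, limma adjusted p = 1.8e-11). KLHL31, a kelch-family gene inside the body of LINC01564, was its nearest neighbour by the rule and had 28.9, 59.6 and 27.0 normalized counts in KYSE450 and 175, 233 and 184 in KEAP1null-KYSE450 (log2 fold change 2.41, standard error 0.31, limma adjusted p = 4.1e-05). The noncoding gene AL033397.1, whose body spans the LINC01564 start on the opposite strand, had 1.07, 1.01 and 2.80 normalized counts in KYSE450 and 1631, 1836 and 1480 in KEAP1null-KYSE450, and every tested gene drawn around LINC01564 was called higher. LINC02561 (chr10:5266033-5271236, minus strand) lies in the aldo-keto reductase 1C cluster, 47.1 kb from AKR1C4 and 3.94 kb from the pseudogene AKR1C7P. LINC02561 measured 5.35, 4.04 and 0.932 normalized counts across the KYSE450 libraries and 60.0, 67.3 and 92.8 across those of KEAP1null-KYSE450 (log2 fold change 4.21, standard error 0.53, limma adjusted p = 4.0e-05). AKR1C4, a carbonyl and steroid reductase gene, had 0, 1.01 and 0 normalized counts in KYSE450 and 46.1, 44.9 and 47.4 in KEAP1null-KYSE450, and AKR1C7P, singled out likewise, had 23.5, 23.2 and 1.86 normalized counts in KYSE450 and 79.4, 84.6 and 92.8 in KEAP1null-KYSE450. Reads of the 1C genes and pseudogenes can be shared between near-identical copies, so the level of each is uncertain.

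LINC00519 and LINC00640 form a divergent pair on chromosome 14, with annotated start sites 1150 bases apart. LINC00640, the eighth largest fold change, measured 7.49, 16.2 and 8.39 normalized counts across the KYSE450 libraries and 148, 182 and 193 across those of KEAP1null-KYSE450 (log2 fold change 3.97, standard error 0.34, limma adjusted p = 1.6e-06). LINC00519, named for its partner after its values were seen, measured 37.4, 17.2 and 19.6 normalized counts across the KYSE450 libraries and 89.5, 105 and 129 across those of KEAP1null-KYSE450 (log2 fold change 2.15, standard error 0.34, limma adjusted p = 2.3e-04). Both rose with no overlap between the lines. Their nearest tested protein-coding gene, TMX1, measured 6094, 6216 and 6554 normalized counts in KYSE450 and 5582, 4761 and 4879 in KEAP1null-KYSE450, with a log2 fold change of -0.31. Of 9 pairs of LINC genes within 50 kb of each other, 7 had the same sign, and LINC00519 with LINC00640 was the only pair with both genes called. Because 79.3% of all LINC genes had a positive fold change, most pairs of LINC genes at any distance would share a sign.

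**Figure D4:**
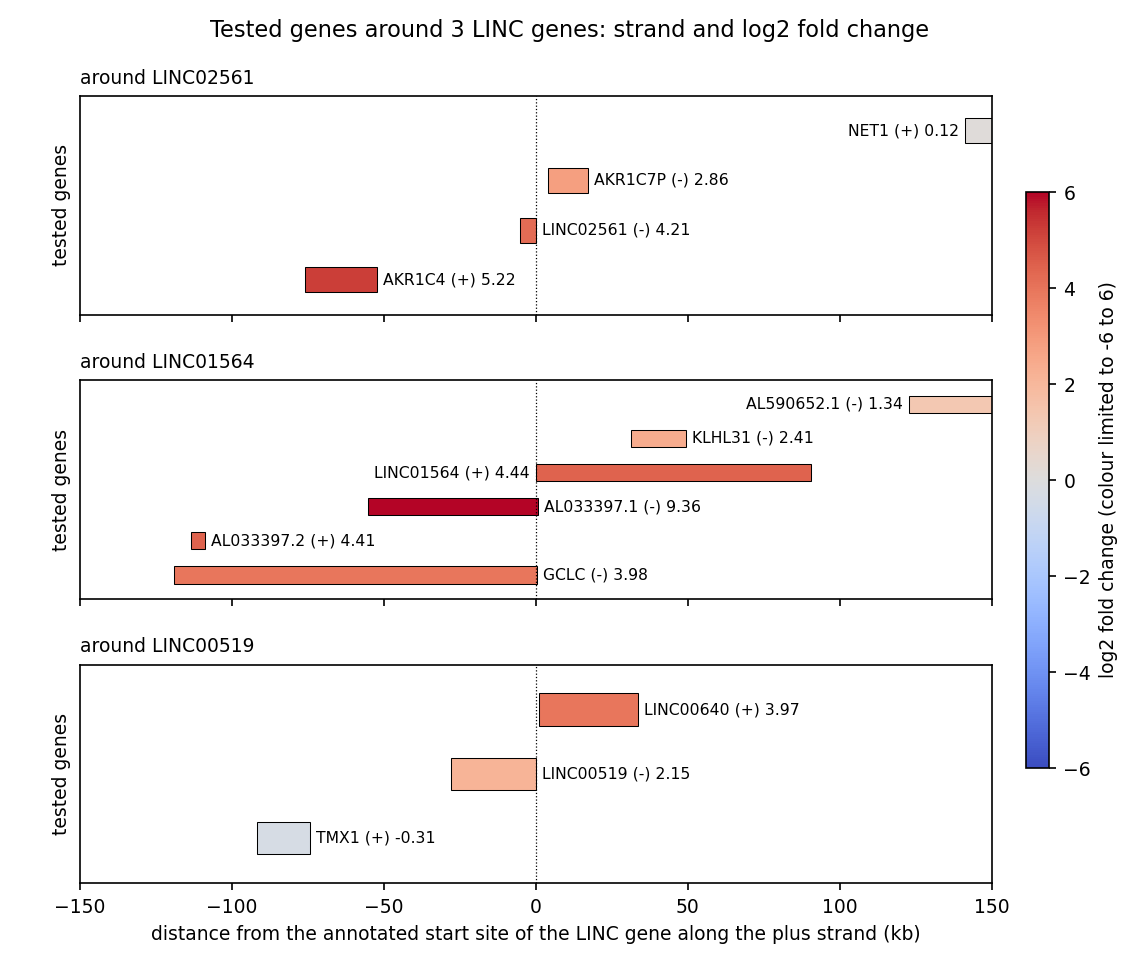
Tested genes around LINC02561, LINC01564 and LINC00519 as bars on a scale of kilobases from the annotated start site of each LINC gene, with strand in parentheses, and with the log2 fold change of the count plus 1 beside the name and in the colour, where bars span all models of a gene. Around LINC01564 every drawn gene has a positive value, GCLC (3.98) among them, while TMX1 beside LINC00519 and LINC00640 is at -0.31.

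RefSeq promoter windows (GRCh38.p14, 250 bases before to 50 after a start site) were found by symbol for 151 of the 246 LINC genes, in 170 windows. The core letters of the antioxidant response element, TGACNNNGC, were searched on both strands, and TGACTCAGC, which is also a match to that core, was counted apart. TGACNNNGC stood in 18.8% of LINC windows and in 13.3% of all 35116 windows. By gene, it stood in 20.5% of LINC genes and in 16.1% of all symbols with a window. By call, it stood in 11 of 58 windows of LINC genes called higher, in 2 of 12 of those called lower and in 19 of 100 of the others. The 2 windows of genes called lower overlap and hold the same match, that of LINC00665, so that by gene it was 1 of 8. TGACTCAGC stood in 2 LINC windows, those of LINC00519 and LINC00987, both called higher, and in 0.561% of all windows. LINC00987, which shares exons with the pseudogene A2MP1 on the opposite strand and is named for this match alone, measured 1.07, 4.04 and 11.2 normalized counts across the KYSE450 libraries and 37.8, 37.7 and 22.2 across those of KEAP1null-KYSE450 (log2 fold change 2.70, standard error 0.66, limma adjusted p = 0.0045). The windows printed here belong to LINC01508, the highest riser per kilobase, to LINC00942 and LINC01752 among the largest rises with the core letters, to the LINC00519 and LINC00640 pair, to the genes at GCLC and the 1C cluster, and to LINC00665, which fell. Capitals mark each match to TGACNNNGC on either strand, in the 5′ to 3′ direction of the gene. A match is a description and not a binding site.
LINC01508, chr9:90433440-90433739, minus strand: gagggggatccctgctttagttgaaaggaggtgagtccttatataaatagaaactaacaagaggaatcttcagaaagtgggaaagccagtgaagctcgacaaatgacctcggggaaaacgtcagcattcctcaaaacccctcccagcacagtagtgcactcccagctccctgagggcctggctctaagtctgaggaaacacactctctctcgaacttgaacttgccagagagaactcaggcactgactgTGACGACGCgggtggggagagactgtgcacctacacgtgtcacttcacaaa
LINC00942, chr12:1500241-1500540, plus strand: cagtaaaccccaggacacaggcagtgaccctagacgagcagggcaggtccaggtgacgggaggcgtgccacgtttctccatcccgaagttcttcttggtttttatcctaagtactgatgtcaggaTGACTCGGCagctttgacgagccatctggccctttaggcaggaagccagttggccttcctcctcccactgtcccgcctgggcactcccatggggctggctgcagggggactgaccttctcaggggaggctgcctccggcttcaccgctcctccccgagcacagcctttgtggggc
LINC01752, chr20:10752840-10753139, plus strand: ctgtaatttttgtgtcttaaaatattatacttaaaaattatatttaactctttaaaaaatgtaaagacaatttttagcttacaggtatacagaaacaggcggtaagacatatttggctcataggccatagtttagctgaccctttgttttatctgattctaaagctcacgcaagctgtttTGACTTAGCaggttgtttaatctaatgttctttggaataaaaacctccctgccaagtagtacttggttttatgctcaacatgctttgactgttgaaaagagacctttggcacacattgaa
LINC00519, chr14:51328336-51328635, minus strand: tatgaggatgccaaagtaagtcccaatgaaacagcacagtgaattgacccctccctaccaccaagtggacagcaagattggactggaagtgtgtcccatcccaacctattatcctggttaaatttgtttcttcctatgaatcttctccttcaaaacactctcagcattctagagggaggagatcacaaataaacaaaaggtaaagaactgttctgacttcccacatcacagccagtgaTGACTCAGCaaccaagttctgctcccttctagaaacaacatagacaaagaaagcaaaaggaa
LINC00640, chr14:51333143-51333442, plus strand: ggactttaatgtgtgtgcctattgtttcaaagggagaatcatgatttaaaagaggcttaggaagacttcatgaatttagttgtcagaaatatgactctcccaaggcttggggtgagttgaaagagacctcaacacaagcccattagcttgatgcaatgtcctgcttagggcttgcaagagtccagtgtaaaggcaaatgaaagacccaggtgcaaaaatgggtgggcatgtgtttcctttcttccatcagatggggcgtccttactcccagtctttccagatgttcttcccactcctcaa
LINC01564, chr6:53628130-53628429, plus strand: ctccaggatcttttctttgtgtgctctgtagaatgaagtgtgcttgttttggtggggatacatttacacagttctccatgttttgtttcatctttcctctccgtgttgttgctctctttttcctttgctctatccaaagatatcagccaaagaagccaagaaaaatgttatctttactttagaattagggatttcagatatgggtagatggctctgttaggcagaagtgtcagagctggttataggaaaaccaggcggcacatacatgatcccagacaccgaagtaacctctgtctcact
LINC02561, chr10:5271187-5271486, minus strand: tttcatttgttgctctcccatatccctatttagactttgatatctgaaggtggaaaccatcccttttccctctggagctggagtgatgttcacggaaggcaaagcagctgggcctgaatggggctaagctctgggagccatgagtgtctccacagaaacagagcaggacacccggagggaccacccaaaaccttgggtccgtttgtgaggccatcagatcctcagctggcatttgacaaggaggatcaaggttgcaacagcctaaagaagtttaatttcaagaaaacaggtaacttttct
LINC00665, chr19:36331669-36331968, minus strand: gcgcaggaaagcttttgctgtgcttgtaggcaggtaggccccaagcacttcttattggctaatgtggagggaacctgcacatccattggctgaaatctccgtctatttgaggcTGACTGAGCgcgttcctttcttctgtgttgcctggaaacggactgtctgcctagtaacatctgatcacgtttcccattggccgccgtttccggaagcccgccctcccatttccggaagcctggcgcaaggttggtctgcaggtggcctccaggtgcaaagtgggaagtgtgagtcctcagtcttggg
In LINC01508 the match begins 1 base before the RefSeq start site, in LINC00519 12 bases, in LINC01752 70, in LINC00942 125 and in LINC00665 137. The windows of LINC00640, LINC01564 and LINC02561 hold no match, which says only that these letters are not in them. RefSeq start sites can differ from those of the gencode annotation used for distances.

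The rest of the genes called higher showed smaller changes. Of 85, 16 had a log2 fold change of at least 3 and 37 of at least 2, and the values ran from 1.01 to 5.85 with a median of 1.88. A mean under 100 normalized counts was found for 64 of them. By level, 31 of 80 LINC genes with a mean from 10 to 30 and 33 of 74 from 30 to 100 were called higher (38.8% and 44.6%). Over all genes these were 539 of 2251 and 631 of 2109 (23.9% and 29.9%). Of the 148 LINC genes not called, 15 passed the fold but not the adjusted p, 33 the adjusted p but not the fold, and 100 neither. No share over all genes is given for these counts or for those by size of fold change, so they only describe the LINC genes.

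Fewer LINC genes fell, and the most abundant of the 13 were LINC00665, LINC00511 and LINC02582. LINC00511, reported as raised in many carcinomas, lies at chr17:72290091-72640472, minus strand. LINC00511 measured 1999, 2416 and 2226 normalized counts across the KYSE450 libraries and 263, 399 and 294 across those of KEAP1null-KYSE450, with means of 2214 ± 209 and 318 ± 71.1 (SD, n = 3 each), at log2 fold change -2.81, standard error 0.15, limma adjusted p = 2.1e-08. LINC00665, which is known to encode a micropeptide, measured 5018, 5058 and 5620.2 normalized counts across the KYSE450 libraries and 1674, 1708 and 1827 across those of KEAP1null-KYSE450, with means of 5232 ± 337 and 1736 ± 80.5 (SD, n = 3 each), at log2 fold change -1.59, standard error 0.094, limma adjusted p = 4.5e-08. Values of the lines were far apart in both genes. Exons of antisense genes overlap LINC00511 over 35 bases and LINC00665 over 659 bases, and without a stated strand setting such reads cannot be told apart. SLC39A11, a zinc transporter gene 5477 bases from LINC00511, had a log2 fold change of 0.46, and ZFP14, a zinc finger gene 2683 bases from LINC00665, one of 0.078. LINC02582, the highest per kilobase among genes called lower (387 normalized counts per kilobase), measured 1578, 1402 and 1667 normalized counts across the KYSE450 libraries and 362, 365 and 418 across those of KEAP1null-KYSE450 (log2 fold change -2.02, standard error 0.12, limma adjusted p = 5.4e-08). Its nearest tested protein-coding gene, FBXO15, lay 723474 bases away, with a log2 fold change of 0.87.

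The largest decrease was that of LINC00525 on chromosome 7, which measured 59.9, 110.2 and 97.0 normalized counts across the KYSE450 libraries and 2.77, 12.2 and 12.1 across those of KEAP1null-KYSE450 (log2 fold change -3.33, standard error 0.51, limma adjusted p = 1.8e-04). That rank did not hold in each alternative. Without KEAP1null-KYSE450 library 1 its log2 fold change was -2.73 and that of LINC00535 was -3.03. With a pseudocount of 0.1 these were -3.51 and -3.63. LINC00525 lies inside PKD1L1, a polycystin-family gene that was called lower too, with 20.3, 24.3 and 14.0 normalized counts in KYSE450 and 2.77, 6.12 and 2.02 in KEAP1null-KYSE450. LINC00920 measured 355, 563 and 457 normalized counts across the KYSE450 libraries and 195, 179 and 138 across those of KEAP1null-KYSE450, and its neighbour CDH5, the vascular endothelial cadherin gene, had 10.7, 20.2 and 28.9 normalized counts in KYSE450 and 1.85, 3.06 and 1.01 in KEAP1null-KYSE450. Both genes of each of these pairs were called lower. PKD1L1 and CDH5 reached a mean of 10 in KYSE450 alone, at 19.5 and 19.9, against 3.63 and 1.97 in KEAP1null-KYSE450. They passed the filter through KYSE450 and had to be lower, so their calls add no support. LINC02236, with 39.6, 51.6 and 41.0 normalized counts in KYSE450 and 1.85, 17.3 and 8.07 in KEAP1null-KYSE450, and LINC00960, with 72.7, 72.8 and 129 normalized counts in KYSE450 and 16.6, 35.7 and 20.2 in KEAP1null-KYSE450, were lower beside TENT4A (log2 fold change -0.52) and ROBO2 (-2.21), neither of which was called. LINC00960 shares 668 exon bases with ZNF717 on the opposite strand. LINC02236 lost its call with edgeR (adjusted p = 0.0504), with DESeq2 (adjusted p = 0.060) and in the limma test against a fold change of 2 (adjusted p = 0.17). LINC00960 and LINC00920 also lost their call in that limma test (limma adjusted p = 0.18 and 0.33). The other 3 of the 10 largest decreases lost their call in at least 1 alternative with a library left out. LINC00504 measured 43.9, 37.4 and 33.6 normalized counts across the KYSE450 libraries and 12.0, 32.6 and 4.04 across those of KEAP1null-KYSE450 (limma adjusted p = 0.040). Without KEAP1null-KYSE450 library 3 its log2 fold change was -0.90 (limma adjusted p = 0.15) in place of -1.59, and leaving out any other library but KEAP1null-KYSE450 library 2 also raised the adjusted p above 0.05, to between 0.057 and 0.082 in limma. Over all alternatives its limma, edgeR or DESeq2 adjusted p ran from 0.0060 to 1.0. LINC02057 measured 39.6, 40.4 and 28.0 normalized counts in KYSE450 and 6.46, 15.3 and 18.2 in KEAP1null-KYSE450, and its limma adjusted p of 0.019 became 0.062 without KYSE450 library 2 and 0.057 without KEAP1null-KYSE450 library 1, with a range from 0.0036 to 1.0 over the alternatives of limma, edgeR and DESeq2. LINC00535, which starts head to head with FAM92A and shares 37 exon bases with it, measured 12.8, 11.1 and 35.4 normalized counts in KYSE450 and 6.46, 0 and 4.04 in KEAP1null-KYSE450, and its limma adjusted p of 0.028 became 0.091 without KEAP1null-KYSE450 library 2, with a range from 0.0070 to 0.51 over the same alternatives. Without KEAP1null-KYSE450 library 2 its log2 fold change was -1.58 in place of -2.45, and without KYSE450 library 3 its mean fell below 10 and it was not tested. CPEB2 and ZSWIM6, the neighbours of LINC00504 and LINC02057, had log2 fold changes of 0.75 and -0.45, and FAM92A one of -0.84, none of them called. The remaining 3 genes called lower, named after their values were seen, were LINC01224, LINC00632 and LINC00479.

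Of 27 LINC genes listed from the cancer literature, 10 passed the mean of 10, 6 were in the matrix below it and 11 were not matched by symbol. Among those kept, 3 were called higher and 2 lower, the latter being LINC00511 and LINC00665, beside 12.2% and 5.98% of all genes, and the median log2 fold change was 0.55. LINC00467 measured 272, 422 and 376 normalized counts across the KYSE450 libraries and 846, 986 and 1158 across those of KEAP1null-KYSE450 (log2 fold change 1.49, standard error 0.17, limma adjusted p = 2.1e-05). LINC00707 measured 48.1, 39.4 and 44.8 normalized counts in KYSE450 and 119, 144 and 106 in KEAP1null-KYSE450, with a log2 fold change of 1.45. LINC00839 measured 537, 690.4 and 602 normalized counts in KYSE450 and 1201, 1272 and 1343 in KEAP1null-KYSE450, with a log2 fold change of 1.07 that became 0.98, under the fold limit, without KYSE450 library 1. These 3 had lines that did not overlap. All 3 lost their call in the limma test against a fold change of 2 (limma adjusted p = 0.10 for LINC00467 and 0.44 for LINC00707). LINC01503, described in squamous carcinoma as driven by a TP63-bound super-enhancer, had nearly the same values in both lines: 741, 760.1 and 788 normalized counts across the KYSE450 libraries and 736, 804 and 804 across those of KEAP1null-KYSE450 (log2 fold change 0.034, standard error 0.11, limma adjusted p = 0.82). LINC00662 also had overlapping lines, with 564, 677 and 677 normalized counts in KYSE450 and 589.6, 666 and 615 in KEAP1null-KYSE450. LINC00963 measured 1672, 1454 and 1565 normalized counts in KYSE450 and 1893, 1824 and 2093 in KEAP1null-KYSE450 and LINC01116, in the HOXD region, 18.2, 22.2 and 20.5 normalized counts in KYSE450 and 46.1, 38.7 and 25.2 in KEAP1null-KYSE450, neither past both thresholds, although the lines did not overlap. LINC01133 measured 1.07, 16.2 and 3.73 normalized counts across the KYSE450 libraries and 14.8, 21.4 and 16.1 across those of KEAP1null-KYSE450, so that 1 KYSE450 library reached into the range of the clone. Its limma adjusted p was 0.072, and 0.012 without KYSE450 library 2, with a range from 0.012 to 1.0 over the alternatives of limma, edgeR and DESeq2. LINC00460, LINC00941, LINC00520, LINC00518 and LINC00261 had at most 1.07 normalized counts in any library, and LINC00461 reached 7.08 in KYSE450 library 2.

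Per kilobase of annotated exon, the highest means were those of LINC00680 (2644 normalized counts per kilobase), LINC00674 (1522), LINC00888 (1519.7), LINC01145 (1469.9), LINC02001 (1257) and LINC01508. In the first 4 of them the identifier belongs to a pseudogene model of 143 to 421 exon bases, so a length taken from another annotation would lower their level per kilobase. None of these 4 was called. LINC00680 measured 432, 492 and 485 normalized counts in KYSE450 and 469, 523 and 470.1 in KEAP1null-KYSE450, LINC00674 293, 247 and 208 normalized counts in KYSE450 and 217, 266 and 231 in KEAP1null-KYSE450 and LINC01145 179.7, 228 and 193 normalized counts in KYSE450 and 226, 213 and 221 in KEAP1null-KYSE450, with the lines overlapping in each. LINC00888 measured 413, 455 and 569 normalized counts in KYSE450 and 700.4, 878 and 824 in KEAP1null-KYSE450, with a log2 fold change of 0.75, under the fold limit. LINC02001, a small nucleolar RNA host gene named SNHG30 in the annotation, measured 1501, 1929 and 2153 normalized counts across the KYSE450 libraries and 1860.2, 2341 and 2435 across those of KEAP1null-KYSE450 (log2 fold change 0.26, standard error 0.14, limma adjusted p = 0.16). LINC01508 was the only one of the 6 to pass both thresholds.

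LINC genes were next set beside their nearest tested protein-coding gene, measured in the same libraries. Of the 245 with a position, 37 overlap the body of that gene. Such overlap was found for 1238 of 2109 other long noncoding genes and 3539 of 13131 protein-coding genes. Median distances to the neighbour were 19519 bases for LINC genes, 0 for other long noncoding genes and 3242 for protein-coding genes, so the classes below are compared at unlike distances. For all 245, 139 neighbours (56.7%) had a fold change of the same sign, beside 50.8% for other long noncoding genes and 56.0% for protein-coding genes and their own neighbours. Across genes, which are not independent replicates, Pearson's r was 0.27 and Spearman's rho 0.21, and for other long noncoding genes 0.36 and 0.28. Of the 85 LINC genes called higher, 12 (14.1%) had a neighbour called higher and 4 one called lower, while 10.6% of all LINC neighbours were called higher. Among genes called higher, the share with a neighbour called higher was 14.9% for other long noncoding genes and 16.5% for protein-coding genes, so that of LINC genes was no larger. Over all neighbours of these classes, called or not, 7.92% and 8.53% were called higher. A neighbour called lower was found for 18 of 599 other long noncoding genes and 49 of 1208 protein-coding genes called higher. Of the 13 called lower, 3 had a neighbour called lower and none had one called higher, beside 31 of 77 other long noncoding genes and 156 of 875 protein-coding genes with a neighbour called lower. Those 3 were LINC00525 with PKD1L1, LINC00920 with CDH5 and LINC00479 with RIPK4, the last named after its values were seen. Neighbours passed the same filter, and PKD1L1 and CDH5 reached the mean of 10 in KYSE450 alone, so both had to be lower. AKR1C4 and DIRAS2 reached it in KEAP1null-KYSE450 alone and had to be higher. The 4 opposite pairs, also named after the fact except the first, were LINC01094 with ANXA3, LINC00992 with SEMA6A, LINC02428 with CENPE and LINC00592 with KRT80, with neighbour log2 fold changes of -3.29, -1.43, -1.05 and -2.25. In all, 30 LINC genes start within 2 kb of a neighbour on the opposite strand, and 22 of these pairs had the same sign, with 11 LINC genes called higher, 1 called lower and none of their neighbours called higher. That is 73.3% of the same sign and 36.7% called higher, beside 49.4% and 31.0% of 778 other long noncoding genes and 54.2% and 6.20% of 1936 protein-coding genes in that arrangement. The share called lower was 3.33% for LINC genes, beside 1.67% and 2.74% for these classes. Their neighbours were called higher in 5.78% and 6.25%, so that none among 30 pairs is near those low shares. 

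**Figure D5:**
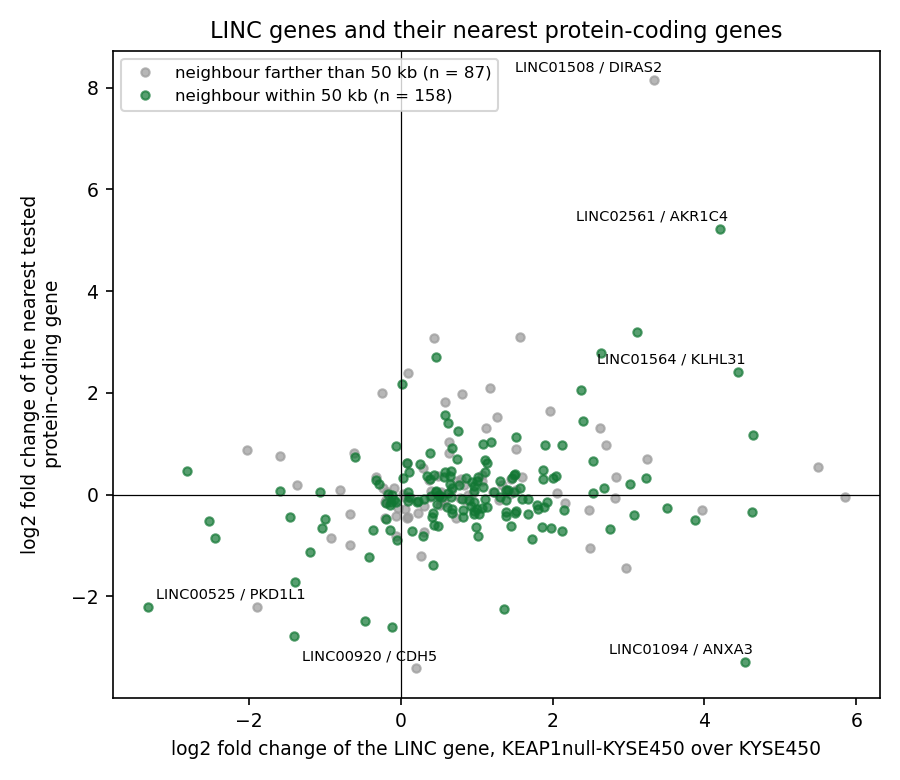
Log2 fold change of each LINC gene (x axis) and of its nearest tested protein-coding gene (y axis), KEAP1null-KYSE450 over KYSE450, 1 point per LINC gene, in green where the genes lie within 50 kb (n = 158) and in grey where they lie farther apart (n = 87). Most points lie near 0 on the y axis over the whole x range, with LINC01508 beside DIRAS2 (8.14) and LINC02561 beside AKR1C4 as high exceptions and LINC01094 beside ANXA3 (-3.29) as a low one.

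Well-known long noncoding RNA genes outside the LINC names gave a scale for these values. Of 60 listed, 50 were tested, 14 were called higher and 2 lower (28% and 4%, beside 12.2% and 5.98% of all genes), and their median log2 fold change was 0.37. LUCAT1, known as a smoke-induced RNA under NRF2 control, measured 6.42, 19.2 and 44.8 normalized counts across the KYSE450 libraries and 1302, 1389 and 1299 across those of KEAP1null-KYSE450 (log2 fold change 6.13, standard error 0.46, limma adjusted p = 4.5e-07). NMRAL2P, a transcribed pseudogene also known as an NRF2 target, measured 225, 289 and 203 normalized counts in KYSE450 and 3447, 4956 and 4272 in KEAP1null-KYSE450 (log2 fold change 4.14, standard error 0.16, limma adjusted p = 7.4e-10). Both had lines far apart, as did H19, the imprinted RNA, which was lower with 373, 216 and 196 normalized counts in KYSE450 and 24.9, 44.9 and 35.3 in KEAP1null-KYSE450. TINCR, an RNA of epidermal differentiation, measured 54.5, 31.3 and 27.0 normalized counts in KYSE450 and 131, 112 and 154 in KEAP1null-KYSE450 and FIRRE, an X-linked nuclear RNA, 123, 114 and 179.9 normalized counts in KYSE450 and 539, 659.6 and 543 in KEAP1null-KYSE450, both called higher. DLEU2 was the other gene called lower, with 906, 991 and 1330.5 normalized counts in KYSE450 and 395, 461 and 481 in KEAP1null-KYSE450. Small nucleolar RNA host genes with an SNHG symbol (n = 19) had a median log2 fold change of 0.17, and genes with an antisense symbol (n = 439) one of 0.76, and both medians stayed positive after quantile normalization (0.17 and 0.41). MicroRNA host genes with an HG symbol (n = 27) had a median of 0.38, which changed sign to -0.21 after quantile normalization.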

How the data were processed

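RNA sequencing of 3 KYSE450 and 3 KEAP1null-KYSE450 libraries was used. The deposited values, a signal called normalized counts, are gene counts that the authors divided by a size factor. By the study's methods and the submitters' processing notes, reads were quality-filtered (FastQC 0.11.5, cutadapt 1.12), aligned to hg38 with STAR 2.6.90c, counted with featureCounts 1.5.1 and normalized; DESeq2 is named for the authors' differential expression. The study's methods name a RefSeq annotation, but the matrix carries Ensembl identifiers, so exon lengths, and with them levels per kilobase, may not be those of the counting. The strand setting of the counting is not given in the sources used here. No column belonged to another sample.

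Each value was a whole multiple of what 1 read is worth in its library. In KYSE450 libraries 1 and 3 and KEAP1null-KYSE450 libraries 1 and 2, 100% of values gave whole reads within 0.1 read, 53027359 to 61543442 per library; in the others 1 read was worth almost 1, and the reads were not used. The floor of 3 reads lay between 2.77 and 3.21 normalized counts. Floors and intervals cover counting error only.

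Lines were compared with limma 3.58.1 (R 4.3.3; lmFit, eBayes with trend) on log2(normalized count + 1), over the 16701 genes whose mean reached 10, two-sided, with Benjamini-Hochberg adjustment over all of them. edgeR 4.0.16 and DESeq2 1.42.0 on the recovered reads of 4 libraries called 2698 and 2500 genes. Fits were tested on simulated data, but no outcome of that is given here, so no result rests on it. Symbols found more than once were taken at their highest mean. Positions, types and exon lengths come from gencode v44 (hg38), which held 245 of the LINC identifiers, 22 of them under another name and 2 typed as protein-coding (LINC00634 and LINC00843). Exons of 105 LINC genes overlap those of another gene. Named genes were first the 10 with the largest fold change either way among those called. From all LINC genes, called or not, came the 6 highest per kilobase, a literature list, and genes not above the floor in one line whose mean reached 30 in the other. Neighbours of the first kind and KEAP1, NFE2L2 and NQO1 were also named. Alternatives were other pseudocounts, filters, scalings, thresholds and tests, each library left out, and genes without exon overlap. The members and lists were chosen with earlier results of these data known.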

Additional observations from a re-analysis of the deposited data

How the results depend on the processing

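The excess of higher over lower calls among LINC genes held under each alternative run, while its size depended on scaling, on the level of the genes and on the test. With genes of a mean of at least 100 alone, 21 LINC genes were called higher and 5 lower with a median log2 fold change of 0.45, over 92 genes in place of 246. That is 22.8% and 5.43%, beside 7.09% and 5.53% of all genes of that level. Quantile normalization gave 51 higher and a median of 0.39; the cause was not tested. A test against a fold change of 2, stricter by construction, called 21 higher and 4 lower, beside 3.75% and 2.37% of all genes. On 4 libraries, edgeR called 74 higher and 8 lower and DESeq2 61 higher and 7 lower, with fewer samples. Over all genes these were 10.9% and 5.22% with edgeR and 9.72% and 5.25% with DESeq2. The 140 annotated LINC genes without exon overlap gave 53 higher and 7 lower (37.9% and 5.00%), beside 12.7% and 6.70% of all annotated genes without such overlap. With any 1 library left out, 62 to 84 were called higher and 9 to 12 lower, beside 10.3% to 12.3% and 5.13% to 6.64% of all genes, and the LINC median lay between 0.65 and 0.78. Neighbours of the same sign numbered 88 of 158 within 50 kb and 82 of 140 without exon overlap, over fewer genes by construction. Of the LINC genes past both thresholds, alternatives were followed for the 24 that the naming rules gave, not for those named beyond these rules. The fold changes of these 24 kept their sign in each of the 16 alternatives that tested them, and 9 lost their call in at least 1, most often under the test against a fold change of 2. LINC01133 passed both thresholds without KYSE450 library 2 and with edgeR. No paired analysis was possible because the columns carry no replicate number. Depth limits the lowest genes: 3 LINC genes were at or below 3 reads in every KYSE450 library, and with LINC01697 at its bound the median was 0.70.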

Other observations

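Below the mean of 10, some LINC loci were detected in one line only, as were genes of any kind. Of the 473 LINC rows above 0 in at least 1 library, 19 were above 0 in every KEAP1null-KYSE450 library and at 0 in every KYSE450 library, and 6 showed the opposite (4.02% and 1.27%). Over all 12098 rows of any kind below that mean and above 0 somewhere, these were 327 and 114 (2.70% and 0.942%), with the same lean toward the clone. LINC00706 had 12.0, 9.17 and 8.07 normalized counts in the KEAP1null-KYSE450 libraries, and LINC01482 had 5.54, 11.2 and 7.06. In the other direction LINC00702 had 12.8, 28.3 and 16.8 in the KYSE450 libraries, and LINC01671 had 10.7, 13.1 and 2.80. These were chosen after their values were seen and were not tested. LINC rows above 0 numbered 401, 414 and 423 in KYSE450 and 504, 517 and 504 in KEAP1null-KYSE450.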
